A study of Homo sapiens with 12 samples.

Results

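CXC chemokines are small secreted attractants of white blood cells, and the 9 described here are CXCL1, CXCL2, CXCL3, CXCL5, CXCL8, CXCL10, CXCL11, CXCL14 and CXCL16, of 20375 genes in each deposited table. They were taken by gene name, and all 9 names were found. Messenger RNA was sequenced from PE/CA-PJ41, a human oral squamous cell carcinoma line, in 3 groups of 4 libraries. These were cells given platelet-rich plasma (PRP, plasma in which platelets have been concentrated) at 10% for 48 h, cells given human plasma at 10% for 48 h, and untreated control cells. The labels give no culture time for control cells and do not tie replicates to different dishes or days. The p-values therefore speak of variation among the sequenced libraries alone, possibly technical. The one cell line limits the model: it holds no immune cells to answer the chemokines. The line's epithelial markers KRT5 and KRT14 were abundant, with 10 squamous markers summing to 13680 to 15250 TPM (transcript level relative to all genes) with PRP, 13750 to 15060 with plasma and 11100 to 12350 in control cells. Of these 10, KRT5 and KRT14 were called higher with both treatments (by 0.68 and 0.41 on the log2 scale with PRP, 0.68 and 0.38 with plasma). KRT17, KRT16 and DSG3 were called lower (-0.71, -0.37 and -0.30 with PRP, -0.59, -0.36 and -0.31 with plasma), and 5 were not called. These counts are near the shares over all genes tested, 21.7% higher and 31.5% lower with PRP, and 20.3% and 29% with plasma.

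Chemokines of the ELR class, named for 3 amino acids before the paired cysteines, include CXCL1, CXCL2, CXCL3, CXCL5 and CXCL8. They attract neutrophils through the receptor CXCR2, with CXCL8 also using CXCR1, and their genes are classic targets of the transcription factor NF-kB. CXCL10 and CXCL11 lack ELR, are induced by interferons and attract T cells through CXCR3. CXCL14 is made by resting epithelium and is often lost in squamous carcinomas, and CXCL16 is a membrane-anchored ligand of CXCR6 that the protease ADAM10 releases from the cell surface.

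The promoters of 6 members are shown because these genes carried the differences below, 5 higher and 1 lower in treated cells. The sequences are the 250 bases before the RefSeq transcript start on GRCh38.p14, 5′ to 3′ on the coding strand, with matches to the NF-kB letters GGNNNTTCC (either strand) in capitals.
CXCL1 promoter, chr4:73869143-73869392, + strand: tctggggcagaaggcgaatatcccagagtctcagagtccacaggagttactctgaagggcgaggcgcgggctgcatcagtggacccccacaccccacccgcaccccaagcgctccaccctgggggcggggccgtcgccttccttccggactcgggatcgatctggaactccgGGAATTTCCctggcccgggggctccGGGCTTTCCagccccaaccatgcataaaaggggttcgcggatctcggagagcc
CXCL2 promoter, chr4:74099196-74099445, - strand: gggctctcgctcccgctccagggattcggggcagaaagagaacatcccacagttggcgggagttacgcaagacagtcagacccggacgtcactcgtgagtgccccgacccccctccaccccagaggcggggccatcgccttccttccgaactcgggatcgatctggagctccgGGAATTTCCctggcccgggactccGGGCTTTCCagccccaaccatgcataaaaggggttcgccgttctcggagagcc
CXCL3 promoter, chr4:74038690-74038939, - strand: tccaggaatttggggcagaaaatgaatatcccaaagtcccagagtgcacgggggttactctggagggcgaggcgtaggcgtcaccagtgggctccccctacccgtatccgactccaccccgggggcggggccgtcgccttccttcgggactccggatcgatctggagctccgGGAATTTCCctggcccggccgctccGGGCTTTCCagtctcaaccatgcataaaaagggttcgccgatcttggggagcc
CXCL8 promoter, chr4:73740319-73740568, + strand: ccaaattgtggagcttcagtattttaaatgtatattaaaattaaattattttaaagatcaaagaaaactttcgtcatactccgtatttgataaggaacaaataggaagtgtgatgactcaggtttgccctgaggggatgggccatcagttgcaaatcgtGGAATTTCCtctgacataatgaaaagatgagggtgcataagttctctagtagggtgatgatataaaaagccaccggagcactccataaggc
CXCL10 promoter, chr4:76023498-76023747, - strand: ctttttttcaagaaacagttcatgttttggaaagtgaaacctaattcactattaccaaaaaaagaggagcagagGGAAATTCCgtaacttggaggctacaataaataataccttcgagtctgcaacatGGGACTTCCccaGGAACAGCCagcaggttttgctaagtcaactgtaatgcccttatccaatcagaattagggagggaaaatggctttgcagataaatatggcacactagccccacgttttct
CXCL14 promoter, chr5:135578992-135579241, - strand: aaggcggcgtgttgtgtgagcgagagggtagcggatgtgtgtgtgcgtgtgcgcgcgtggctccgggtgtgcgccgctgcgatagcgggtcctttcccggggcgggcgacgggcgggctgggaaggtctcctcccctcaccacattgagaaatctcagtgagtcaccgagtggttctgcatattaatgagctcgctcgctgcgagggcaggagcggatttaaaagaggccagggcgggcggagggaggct

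Searching the 300 bases from 250 before to 50 after the start, the NF-kB letters were found in 7 of the 8 members with an entry, and in 20.1% of all 27305 promoters of the same table. In CXCL1, CXCL2 and CXCL3 the word GGAATTTCC began at -78, -77 and -78 and GGGCTTTCC at -53 in each, counting the base before the start as -1. CXCL5 and CXCL8 held GGAATTTCC at -90 and -91. CXCL10 had 3 matches, beginning at -176, -122 and -110, and CXCL11 had 1 at -75. CXCL14 had none in this window, and held the AP-1 letters TGANTCA as TGAGTCA at -92, which 7.76% of promoters hold. CXCL8 and CXCL11 also held TGACTCA. The interferon response letters GAAANNGAA were in CXCL2, CXCL3 and CXCL10, against 8.29% of promoters, and the TATA letters TATAAA in CXCL8 and CXCL11, against 12%. The letters TTCNNNGAA of the interferon gamma activated sequence (GAS), present in 7.88% of promoters, were in CXCL5, where they overlapped the NF-kB match, and at 2 places in CXCL11. Aligned end to end, the windows of CXCL1 and CXCL3 shared 82.5% of bases, CXCL2 and CXCL3 73.8%, and CXCL1 and CXCL2 71.9%, whereas the other pairs shared 44.2% to 55.4%. A match of letters is a description and not a site.

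**Figure D1:**
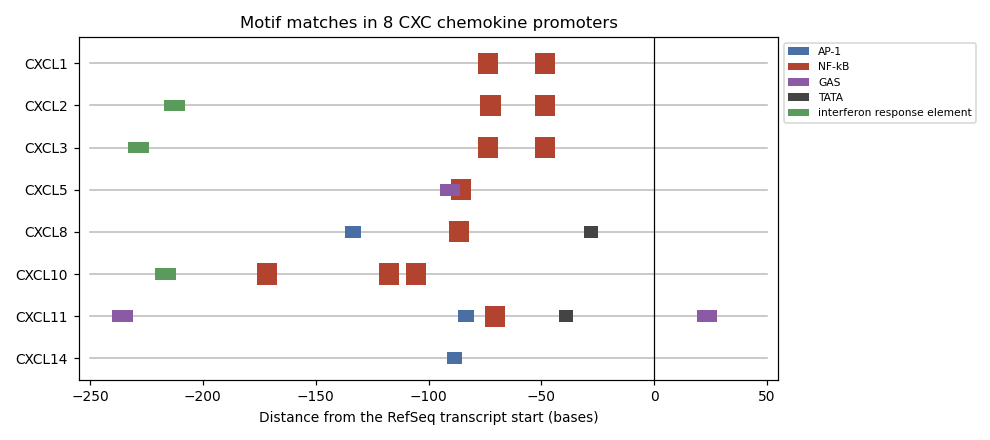
Positions of motif matches in the promoters of 8 members, as distance in bases from the RefSeq transcript start (x axis), 1 line per gene, with colours for the motif. CXCL1, CXCL2 and CXCL3 share the spacing of 2 NF-kB matches, and CXCL14 has no NF-kB match.

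Levels are in TPM, a share of all transcripts in the library, which correct for transcript length and so let genes be compared. Differences were tested with limma-trend on log2(TPM + 1) over the 12517 genes that reached 1 TPM in 4 or more libraries, with p-values adjusted by Benjamini-Hochberg over all of them and called under 0.05. Of the 9 members, 7 passed the filter. CXCL2, CXCL3 and CXCL10 passed only through the treated libraries, so they had to differ to be tested. The counts and medians that follow describe the tested members without supporting a pattern. In bulk RNA, fewer cells making a transcript and less of it per cell cannot be told apart.

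CXCL1, a neutrophil attractant first described as a growth factor for melanoma cells, had the largest difference among the members on the log2(TPM + 1) scale. Its level was 102, 100.2, 99.9 and 92.3 TPM with PRP, 121, 138, 81.0 and 76.7 TPM with plasma, and 23.5, 23.8, 32.1 and 29.5 TPM in control cells. Every treated library lay above every control library, and the 4 plasma libraries spread more (SD 30.1 TPM) than those of PRP (SD 4.32 TPM). On the log2(TPM + 1) scale the difference was 1.83 ± 0.16 (SE) for PRP minus control (adjusted p = 5.54e-07) and 1.87 ± 0.16 for plasma minus control (adjusted p = 5.88e-07), ranking 7 and 4 among the rises of 12517 genes. In mean TPM this is 3.63-fold higher with PRP and 3.83-fold higher with plasma, where CXCL10, a far scarcer transcript, was 3.55-fold and 4.35-fold higher.

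CXCL8, also called interleukin 8, lies 129 kb from CXCL1 in the same cluster on chromosome 4. It had 29.3, 31.7, 31.7 and 27.5 TPM with PRP, 36.1, 40.2, 28.5 and 27.1 TPM with plasma, and 13.9, 16.4, 19.4 and 18.6 TPM in control cells. The treated libraries again all exceeded the control libraries. The log2 difference was 0.79 ± 0.12 for PRP minus control (adjusted p = 8.96e-05) and 0.90 ± 0.12 for plasma minus control (adjusted p = 3.41e-05), or 1.76-fold and 1.93-fold in mean TPM.

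CXCL2 and CXCL3, close relatives of CXCL1, were expressed at a much lower level. CXCL2 had 1.56, 1.90, 1.58 and 2.38 TPM with PRP, 1.33, 2.24, 1.09 and 1.44 TPM with plasma, and 0.50, 0.56, 0.35 and 0.79 TPM in control cells. Its treated and control libraries did not overlap, and its log2 difference was 0.88 ± 0.14 with PRP (adjusted p = 0.000179) and 0.69 ± 0.14 with plasma (adjusted p = 0.00136). CXCL3 had 2.16, 2.54, 1.61 and 2.15 TPM with PRP, 2.42, 3.03, 2.68 and 1.51 TPM with plasma, and 0.62, 0.73, 1.14 and 0.60 TPM in control cells. It too did not overlap with control, with a log2 difference of 0.81 ± 0.15 with PRP (adjusted p = 0.00046) and 0.93 ± 0.15 with plasma (adjusted p = 0.000183). The added 1 TPM compresses such low genes: with voom on the estimated reads CXCL2 differed by 1.79 ± 0.30 with PRP and 1.46 ± 0.31 with plasma. CXCL3 differed there by 1.48 ± 0.29 with PRP and 1.64 ± 0.29 with plasma. These values rested on 31 to 57 reads per library for CXCL2 with PRP and on 8 to 18 in control cells. Of the 31-base words of GENCODE 29 transcripts, 22.5% of CXCL2, 14.4% of CXCL1 and 9.54% of CXCL3 occurred in another gene, mostly in one another, so the split of reads among these 3 is uncertain, whereas CXCL8 and CXCL10 shared none.

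CXCL5, an epithelial ELR chemokine, was close to undetected and not tested. It had 4, 4, 6 and 2 estimated reads with PRP, 0, 1, 0 and 4 with plasma, and 0, 0, 0 and 1 in control cells. The sums were 16, 5 and 1 reads in 4 libraries each. With no filter on low values the log2 difference was 0.09 ± 0.02 for PRP minus control (adjusted p = 0.0134) and 0.02 ± 0.02 for plasma minus control (adjusted p = 0.513).

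CXCL10, an interferon-inducible T cell attractant, had 1.64, 1.65, 2.03 and 1.01 TPM with PRP, 0.75, 2.32, 1.83 and 2.84 TPM with plasma, and 0.38, 0.22, 0.45 and 0.74 TPM in control cells. The lowest plasma library stood just above the highest control library. The log2 difference was 0.83 ± 0.21 with PRP (adjusted p = 0.00421) and 0.98 ± 0.21 with plasma (adjusted p = 0.00167), and with voom 1.88 ± 0.50 and 2.05 ± 0.49. CXCL11, its neighbour on chromosome 4 and a ligand of the same receptor, was not tested and had 0.28, 0.33, 0.15 and 0.17 TPM with PRP, 0.22, 0.52, 0.09 and 0.29 TPM with plasma, and 0.51, 0.34, 0.12 and 0.21 TPM in control cells. These ranges overlapped, with sums of 30, 35 and 36 reads, and with no filter the log2 difference was -0.06 ± 0.11 with PRP (adjusted p = 0.689) and -0.02 ± 0.11 with plasma (adjusted p = 0.925).

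CXCL14, the epithelial chemokine, moved the other way. It had 4.27, 4.62, 4.28 and 5.31 TPM with PRP, 5.95, 5.73, 6.09 and 6.08 TPM with plasma, and 22.6, 15.7, 9.88 and 10.9 TPM in control cells. All treated libraries lay under all control libraries, and control replicates 1 and 2 were the highest. The log2 difference was -1.42 ± 0.18 for PRP minus control (adjusted p = 1.92e-05), ranking 16 among the falls of 12517 genes, and -1.11 ± 0.18 for plasma minus control (adjusted p = 0.000194), ranking 54. The PRP libraries were also all below the plasma libraries, but that difference, -0.31 ± 0.18, was not called (adjusted p = 0.713).

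CXCL16 was the steadiest of the abundant members. It had 69.2, 71.9, 63.5 and 62.8 TPM with PRP, 74.2, 73.0, 69.5 and 67.5 TPM with plasma, and 64.8, 68.1, 66.0 and 58.1 TPM in control cells. The 3 groups overlapped. The log2 difference was 0.06 ± 0.06 with PRP (adjusted p = 0.421) and 0.14 ± 0.06 with plasma (adjusted p = 0.0485), and 10 of 20 alternative settings did not call the plasma value (adjusted p from 0.000413 to 0.156).

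**Figure D2:**
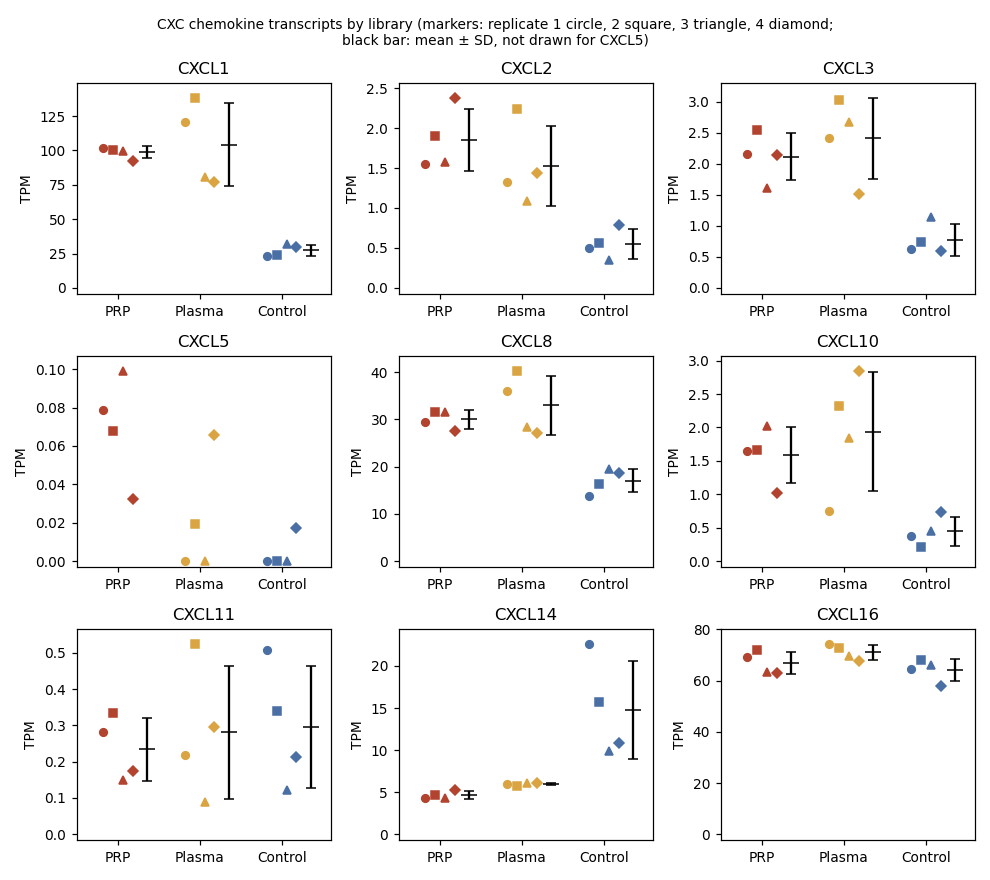
TPM (y axis, linear, scaled per gene) of the 9 members in each library, by group (PRP, plasma, control; n = 4), with mean ± SD as black bars except for CXCL5. CXCL1, CXCL2, CXCL3, CXCL8 and CXCL10 lie higher in every treated library than in any control library, CXCL14 lies lower, and CXCL11 and CXCL16 overlap. CXCL2, CXCL3 and CXCL10 passed the filter only through treated libraries, and the share of all genes without overlap was not computed.

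Against control, 5 of the 7 tested members were called higher and 1 lower with PRP, where 21.7% of all genes tested were called higher and 31.5% lower. With plasma 6 were called higher and 1 lower, where 20.3% of all genes were called higher and 29% lower. The median log2 difference over the tested members was 0.81 with PRP and 0.90 with plasma, against -0.06 and -0.05 over all genes tested. CXCL2, CXCL3 and CXCL10 had to differ to be tested and enter both member medians, and the PRP median is the CXCL3 value itself. These medians are therefore not read as a shift of the members. Both comparisons use the same control libraries.

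Between PRP and plasma no member was called, nor did any have an unadjusted p under 0.05, and 0.0639% of all genes tested (8 genes) were called in either direction. The log2 difference of CXCL1 was -0.03 with a 95% interval of -0.37 to 0.31, and that of CXCL8 was -0.11 with an interval of -0.37 to 0.14. For CXCL10 it was -0.14 (interval -0.59 to 0.31), for CXCL2 0.19 (interval -0.12 to 0.50) and for CXCL3 -0.12 (interval -0.44 to 0.21). CXCL14 had the interval -0.70 to 0.07 and CXCL16 -0.21 to 0.03. All 7 intervals include 0. For CXCL2, CXCL3 and CXCL10, at a few TPM, a given log2(TPM + 1) difference stands for a larger fold than in the abundant members. The medians were -0.11 over the 7 members and -0.004 over all genes tested.

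**Figure D3:**
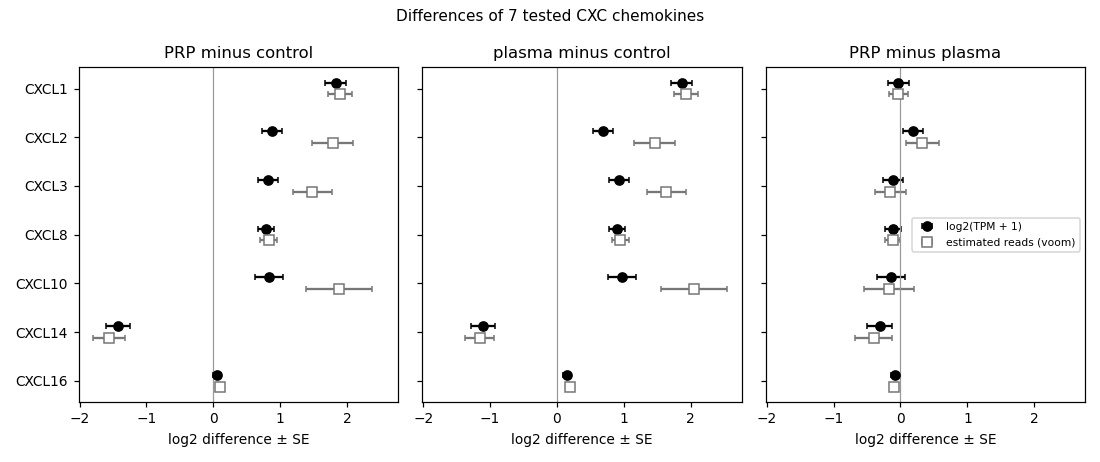
Log2 differences ± SE (x axis) of the 7 tested members for PRP minus control, plasma minus control and PRP minus plasma, from log2(TPM + 1) (filled circles) and from estimated reads with voom (open squares). CXCL1 differs by 1.83 with PRP and 1.87 with plasma in the TPM fit, and CXCL2, CXCL3 and CXCL10 have larger differences in the voom fit.

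The order of the members by level changed at the top. With PRP and with plasma the order was CXCL1, CXCL16, CXCL8 and CXCL14, with no overlap between neighbours. In control cells CXCL16 stood first, CXCL1 next and without overlap, and CXCL8 (17.1 TPM) and CXCL14 (14.8 TPM) overlapped. CXCL3, CXCL2 and CXCL10 came next, below CXCL14 without overlap, and neighbours among these 3 overlapped in each group. CXCL11 and CXCL5 were last. CXCL11 overlapped with the member above it in control cells but not with PRP or plasma. The 9 members summed to 206 ± 9.18 TPM (SD) with PRP, 220 ± 39.6 TPM with plasma and 125 ± 4.27 TPM in control cells. CXCL1 made up 47.9% of that sum with PRP, 46.6% with plasma and 21.7% in control cells, CXCL14 2.25%, 2.78% and 11.8%, and CXCL16 32.4%, 32.9% and 51.2%. The share of CXCL8 was 14.6%, 14.9% and 13.6%.

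**Figure D4:**
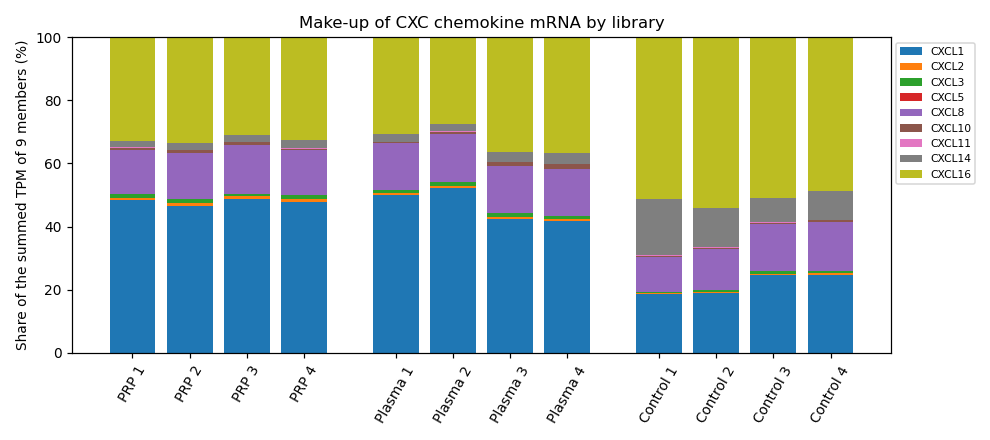
Share of each member (%) in the summed TPM of the 9 members, 1 bar per library, PRP, plasma and control from left to right. The CXCL1 share is 46.6% to 48.8% in PRP libraries, 41.8% to 52.1% in plasma libraries and 18.6% to 24.8% in control libraries.

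Whether 2 members changed by unequal amounts was tested on log2 ratios with exact permutation tests over 70 assignments, two-sided, adjusted over 18 tests (6 ratios in 3 comparisons). The log2 ratio of CXCL8 to CXCL1 was -1.68 ± 0.07 (SD) with PRP, -1.60 ± 0.15 with plasma and -0.64 ± 0.09 in control cells, so CXCL1 gained on CXCL8. The difference was -1.04 for PRP minus control and -0.96 for plasma minus control, each with an exact p = 0.0286, the smallest these libraries allow, and adjusted p = 0.0468. That adjusted value depends on how many of the 18 tests reach the smallest p, among them ratios that depended on the pseudocount or are not read below. With a pseudocount of 0.1 both differences were nearly the same size, -1.04 and -0.96. Their exact p was again 0.0286, but fewer tests reached it, and the adjusted p was 0.0857. The ratios of CXCL2 and CXCL3 to CXCL1 fell by 0.95 and 1.02 with PRP and by 1.17 and 0.93 with plasma (adjusted p = 0.0468 each, exact tests). These depended on the pseudocount: with 0.1 the differences were -0.25 and -0.50 with PRP and -0.58 and -0.38 with plasma, and none was called. CXCL10 over CXCL1 differed by -0.998 with PRP (adjusted p = 0.0468, exact test) and -0.89 with plasma (adjusted p = 0.129), and by -0.19 and -0.05 with a pseudocount of 0.1. CXCL11 over CXCL10 differed by -0.90 with PRP and -0.99 with plasma (adjusted p = 0.0468 each, exact tests), and by -1.85 and -1.93 with a pseudocount of 0.1 (adjusted p = 0.0857 each, exact tests), with CXCL11 at 16 reads or fewer per library. At so low a CXCL11 level this ratio holds mostly CXCL10, which had to differ to be tested. It therefore restates the CXCL10 difference and adds no support. The ratio of CXCL5 to CXCL1 was also computed and counted in the 18 tests, but with CXCL5 near 0 in every library, log2(TPM + 1) leaves little but CXCL1 in it, so it is not read here. The 6 ratios between PRP and plasma had adjusted p of at least 0.435.

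Within groups, CXCL1 and CXCL8 deviated together: the correlation of their deviations from the group means was 0.937 over 12 libraries. Plasma replicates 1 and 2 were high in both genes, and control replicates 1 and 2 were low in both. For CXCL1 and CXCL14 it was -0.49 and for CXCL8 and CXCL14 -0.66, and CXCL10 gave -0.14 with CXCL1. These values describe 12 libraries whose TPM share 1 total per library. By log2 level over all 12 libraries, the genes most like CXCL1 among 10226 candidates with a mean of at least 5 TPM were PSME2 (r = 0.989), ZC3H12A (0.986), SORD (0.986) and SERPINA3 (0.985), and for their deviations from the group means r was 0.853, 0.796, 0.805 and 0.838. Those most like CXCL10 were UMPS (0.938), MAGEA4 (0.919), HIGD1A (0.912) and H2AC18 (0.912), with r of the deviations at 0.845, 0.719, 0.694 and 0.876. Chosen after values were seen, those most like CXCL14 were NOP53 (0.983), NABP1 (0.983), YPEL3 (0.980) and PINK1 (0.979), with r of the deviations from 0.875 to 0.911. The coefficients over all libraries span groups that differ and describe only these libraries.

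**Figure D5:**
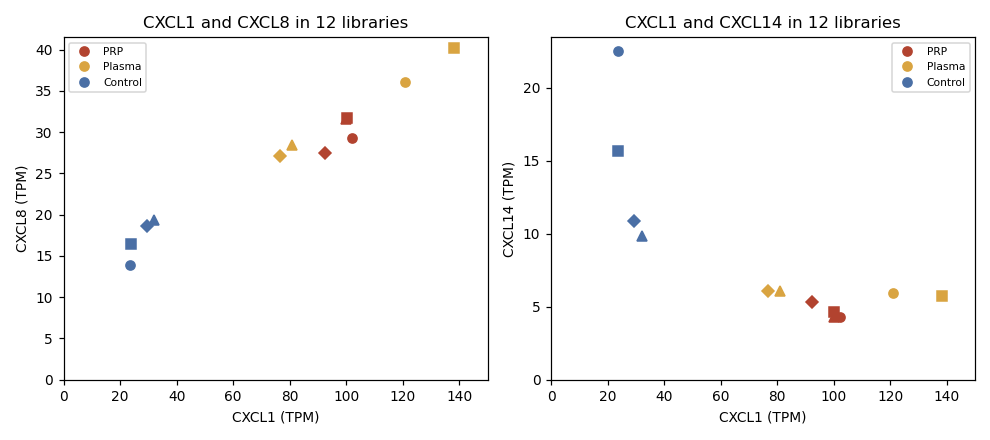
CXCL8 (left) and CXCL14 (right) in TPM on the y axis against CXCL1 in TPM on the x axis, 1 point per library, coloured by group with the marker shape giving the replicate number. Treated libraries lie at 76.7 TPM CXCL1 and above, and control libraries at 32.1 and below.

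On chromosome 4 the ELR genes and the platelet chemokines lie together, from CXCL8 to CXCL2 over 356 kb, and only some were expressed. PF4 and PF4V1, the platelet factor 4 genes between CXCL8 and CXCL2, had 0 reads in all 12 libraries, and PPBP, the precursor of another platelet chemokine, had 3 reads in 1 PRP library. CXCL6 had at most 3 reads. CXCL9, beside CXCL10, had at most 4 reads, CXCL13 at most 1, and CXCL12 had 0 in all. CXCL17, a mucosal chemokine, was the only other CXC ligand tested of 8. It averaged 1.47 ± 0.34 TPM with PRP, 2.04 ± 0.36 with plasma and 2.23 ± 0.62 in control cells, lower with PRP (log2 -0.38 ± 0.14, adjusted p = 0.0406).

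Of 10 CXC and atypical receptors, 2 were tested. CXCR2, the receptor of the ELR ligands, averaged 2.38 ± 0.18 TPM with PRP, 2.30 ± 0.12 with plasma and 1.44 ± 0.73 in control cells, with a log2 difference of 0.52 ± 0.16 with PRP (adjusted p = 0.0161) and 0.49 ± 0.16 with plasma (adjusted p = 0.0242). Its control libraries ran from 0.682 to 2.28 TPM, and the highest of them lay within the treated range. ACKR3, a scavenging receptor of CXCL12 and CXCL11, was high at 120.3 ± 5.71 TPM with PRP, 125 ± 7.59 with plasma and 135 ± 10.3 in control cells, lower with PRP (log2 -0.16 ± 0.06, adjusted p = 0.0271). CXCR1 and CXCR3 were at or under 0.137 TPM in every library. Of 8 tested proteases that process chemokines, 4 were higher with PRP and 5 with plasma, and 0 lower, where 21.7% and 20.3% of all genes tested were higher. Their median log2 difference was 0.25 with PRP and 0.30 with plasma, against -0.06 and -0.05 over all genes tested. ADAM10, the sheddase of CXCL16, rose by 0.26 with PRP and 0.25 with plasma. MMP9, which trims CXCL8 and passed the filter only through treated libraries, had 6.04 ± 1.17 TPM with PRP, 2.29 ± 0.53 with plasma and 0.35 ± 0.07 in control cells, and was called between PRP and plasma too (log2 1.10 ± 0.14, adjusted p = 0.00544).

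The counts of the next lists stand against 21.7% of all genes tested called higher and 31.5% lower with PRP, and 20.3% higher and 29% lower with plasma, with medians of -0.06 and -0.05. Of a list of cytokines that induce CXC chemokines and related receptors, 10 of 15 tested were higher and 1 lower with PRP. The counts with plasma were 9 higher and 0 lower, and the median log2 difference was 0.36 with PRP and 0.33 with plasma. Counted among the higher genes was IL36RN (0.47 with PRP and 0.53 with plasma), a receptor antagonist and not an inducer, also named after its values were seen. TNF and IL36G, the second named after its values were seen, passed the filter only through treated libraries and so had to differ to be tested. IL1A, which induces CXCL1 and CXCL8, rose by 1.03 with PRP and 0.95 with plasma, IL6 by 0.90 and 0.95, and TNF by 0.68 and 0.75, TNF reaching 1.19 ± 0.10 TPM with PRP, 1.30 ± 0.23 with plasma and 0.36 ± 0.07 in control cells. Among 16 genes of NF-kB and its regulators, 9 were higher and 5 lower in both comparisons, the lower share being near that of all genes, with a median of 0.22 with PRP and 0.23 with plasma. The kinase IKBKE rose by 1.27 with PRP and 1.25 with plasma, the inhibitor NFKBIA by 0.70 and 0.76, NFKBIZ by 0.82 and 1.02 and BCL3 by 0.95 and 0.92. The subunits, named after their values were seen, were mixed. RELA and NFKB2 fell by 0.20 and 0.56 with PRP and by 0.20 and 0.54 with plasma. NFKB1 and RELB rose by 0.24 and 0.21 with PRP and by 0.23 and 0.24 with plasma, and REL was not called. Of 14 interferon response factors, 5 were higher and 1 lower with PRP, and 5 higher and 2 lower with plasma, with a median of -0.006 and 0.10. IRF1, an activator of CXCL10, rose by 0.64 with PRP and 0.62 with plasma. Of 10 genes that control the decay of chemokine mRNA, 4 were higher and 4 lower with PRP, and 3 higher and 4 lower with plasma, with a median of -0.06 and -0.08. ZC3H12A, an RNase that degrades cytokine mRNA, rose by 1.13 with PRP and 1.15 with plasma, whereas ZFP36L2, a decay factor of AU-rich mRNA, fell by 0.53 and 0.39.

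Markers of other cells were at the following levels. Their counts stand against 21.7% of all genes tested called higher and 31.5% lower with PRP, and 20.3% and 29% with plasma. With so few markers tested per list, the counts are not read as a shift of a list. The 10 leukocyte markers summed to 5.84 to 8.12 TPM with PRP, 5.36 to 7.63 with plasma and 2.93 to 4.02 in control cells, mostly CD14, which rose by 1.25 with PRP and 1.11 with plasma. Their defining gene PTPRC averaged 0.05 TPM with PRP, 0.09 with plasma and 0.62 in control cells, and 3 of the 10 had 0 reads in every library. The 8 platelet markers summed to 0.38 to 0.44 TPM with PRP, 0.42 to 0.70 with plasma and 0.54 to 0.87 in control cells, and none passed the filter. Of the erythroid markers 0 of 1 tested was called, with sums of 1.05 to 2.87 TPM with PRP, 1.21 to 1.92 with plasma and 1.46 to 2.77 in control cells. Of 4 fibroblast markers tested, 2 were lower with PRP and 1 with plasma, LUM by 1.09 and 0.95, with sums of 20.5 to 21.6, 19.2 to 24.9 and 21.6 to 32.1 TPM for PRP, plasma and control. Endothelial markers summed to 29.6 to 35.6 TPM with PRP, 30.5 to 38.1 with plasma and 12.5 to 24.4 in control cells, and 1 of 2 tested was called, CDH5, higher by 1.35 with PRP and 1.40 with plasma. VWF differed by 0.02 with PRP and 0.14 with plasma and was not called, and PECAM1, KDR, TEK and CLDN5 were under 0.3 TPM in every library. The part of these markers in the chemokine differences was not tested.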

How the data were processed

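RNA was extracted with the RNeasy kit and polyadenylated RNA was made into libraries with the Watchmaker kit, per the labels' protocols. The submitters' processing notes list Salmon and hg38. No version, transcript set or use of strand is given in the sources used here. Each library's deposited table holds TPM, effective length and estimated counts of reads, written with decimal commas. Such values could not be registered as counts, so no count model served as the main test. The planned limma on TPM was used, with voom on the estimated reads as an alternative. Total estimated reads ranged from 36258955 to 41976136 per library, and a floor of 3 reads is 0.0715 to 0.0827 CPM, for counting error only. TPM recomputed from reads and effective length matched the deposited TPM for all genes within 1% plus 0.01 TPM.

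Differences were tested by limma-trend on log2(TPM + 1), in limma 3.58.1 under R 4.3.3, with 1 term per group over 12 libraries, two-sided, with Benjamini-Hochberg adjustment. The scripts were tested on simulated data. TPM is relative within a library, and the effective lengths of the 7 tested members differed by at most 0.033 on the log2 scale between groups. CXCL11, not tested, had an effective length of 1051 in control replicate 2 against 1204 to 1215 in the other control libraries. The alternatives were a pseudocount of 0.1, no filter, median centring, voom on estimated reads with 2 scalings, only the compared libraries, a replicate block, leaving out libraries, and a log2 change of at least 1. Replicates differed by more than sampling noise (chi-square per degree of freedom at least 3.85).

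The members, gene lists and tests were chosen with earlier results of these data known. Named genes were all members, up to 4 called genes per list with the smallest adjusted p, defining genes of marker lists, and the 4 genes most like CXCL1 and CXCL10. Of these, 1 gene is not reported here. Promoters and positions are from RefSeq, and CXCL16 had no promoter in the table used.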

Additional observations from a re-analysis of the deposited data

Results flagged for a closer look

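In 1 of 27 sets of 4 libraries (9 members in 3 groups), 1 library stood apart from the other 3: CXCL5 was at 0.01704 TPM in control replicate 4, which is 1 read, against 0 in the other 3 control libraries. Chance sets apart about 1 in 20 sets of continuous values. That rate does not apply here, because 1 read beside 3 values of 0 is always flagged.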

How the results depend on the processing

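The calls of CXCL1, CXCL2, CXCL3, CXCL8, CXCL10 and CXCL14 against control kept their direction and side of the threshold in all 20 alternatives each. In several of these the difference itself could not change, as when a library of the third group was left out, and only its p-value did. All but the no-filter alternative kept the filter that CXCL2, CXCL3 and CXCL10 passed only through treated libraries. CXCL16 was not called with plasma in 10 of 20 alternatives and was called with PRP in 2 (adjusted p = 0.0103 at the lowest). With a log2 change of at least 1 also required, 2 members were called with PRP and 2 with plasma, and 208 genes with PRP minus control, 172 with plasma minus control and 2 with PRP minus plasma. Genes called between PRP and plasma, 8 in the main test, were 4 with no filter, 13 with voom scaled by library total, 16 with only the 8 libraries compared, 1 with the 3 libraries numbered 1 left out, and 4 to 14 when each library was left out in turn. The count of called ratios, 11 of 18, was 0 with a pseudocount of 0.1, and 0 to 12 when each library was left out. In the main test the called ratios all had the smallest exact p, so each call depended on how many others reached it. Deviations from the group means correlated at -0.0672 to 0.304 between libraries of the same number, with 5 of 12 such pairs over 0.1. Of the 12 libraries, 5 correlated best with their own number. A partial pairing by replicate number is possible and was not tested. With the replicate block 6 members were called with PRP, 7 with plasma and 0 between them, among 7105, 6600 and 9 genes, and 0 ratios, for which 4 pairs cannot give a p under 0.125. For PRP minus plasma, values without a call changed sign: CXCL1 was -0.164 to 0.116 when each library was left out and 0.035 with libraries numbered 1 left out, and CXCL10 was -0.372 to 0.007. The log2 ratios ranged from -0.161 to 0.064 (CXCL3 over CXCL1), -0.050 to 0.251 (CXCL5 over CXCL1), -0.424 to 0.171 (CXCL10 over CXCL1) and -0.044 to 0.306 (CXCL11 over CXCL10). Median centring moved the share of lower calls to 46% with PRP and 45.9% with plasma, against 59.2% and 58.8% in the main test. The cause of these changes was not tested. CXCL5 and CXCL11 are limited by depth, at 16 reads or fewer in every library.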
